A study of Rattus norvegicus with 12 samples.

Results

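The 200 long noncoding RNAs (lncRNAs) with the most reads were described in wound tissue of diabetic rats, across 4 treatments and 3 days. They were the first 200 of 5526 genes that the count table labels as lncRNA, ranked by their reads summed over 12 libraries, among 25620 genes of all types. They were chosen by their summed reads, so their abundance is a description and not a finding. The last gene taken, LOC103691754, had 613 reads, and the first left out, LOC102552762, had 608. LOC symbols are provisional names, and 185 of the 200 genes carry one.

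The wounds were full-thickness wounds in the back skin of male Sprague-Dawley rats made diabetic with streptozotocin, so every group, the control included, carried that diabetes. The control wounds received saline. The other wounds received d-SMG (the dried mucus gel of the snail *Achatina fulica*), s-GAG (the sulfated glycosaminoglycan purified from that gel, written GAG in the labels), or Alg (an alginate dressing). Tissue labelled as skin was taken on day 3, 7, and 14, with 1 library for each treatment and day, and no source used here says whether a library came from 1 animal or from several. A difference on a single day therefore has no replicate check, and in the fits over days the days stand in for replicates of a treatment.

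The libraries held 13748887 to 38302461 reads on genes. Levels are given as CPM, read counts scaled to a common library total with TMM factors, which correct for a few genes taking many of the reads. All 14 measured keratinocyte markers were detected in every library, but their sum was 48.7 CPM in the d-SMG library of day 3 and 4433 to 41633 CPM in the other 11. That library also held the highest sum of 20 skeletal muscle markers, 297543 CPM, against 7596 to 172521 CPM elsewhere. The s-GAG library of day 14 held the highest keratinocyte sum and the lowest sum of 11 macrophage markers, 694 CPM against 1003 to 4815 CPM. In tissue of mixed cells, fewer cells of a type and less RNA per cell cannot be told apart.

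LncRNAs are transcripts of which no translated protein is annotated. Some act as RNA, and others are known mainly for what is cut out of them. MicroRNA (miRNA) hosts carry a hairpin that is processed to a short RNA, which silences messenger RNAs through its seed. Small nucleolar RNA (snoRNA) hosts carry guides for the modification of ribosomal RNA in their introns, and their spliced transcripts share a type of promoter with ribosomal protein genes. H19 is an imprinted lncRNA that is expressed from the maternal allele, is abundant in fetal tissues and in muscle, and shares its control region with the growth factor gene Igf2. LncRNAs as a class are often restricted to few cell types.

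By RefSeq annotation of the assembly GRCr8, 159 of the 200 genes could be matched, 152 by symbol, 6 by gene ID, and 1 by synonym. The build behind the counts is not given in the sources used here, so no gene coordinates are taken from this match, only which genes lie inside, across, or beside each other. Of the 200, 10 held an annotated miRNA, 12 held an annotated snoRNA, 1 of these held both, and 66 overlapped a protein-coding gene. Of the 200, 7 are now protein coding in RefSeq, 2 of which are among the 66. These 7 are Ndufb1 (a subunit of respiratory complex I), Rhno1 (a partner of the checkpoint clamp in DNA repair), Tmem80, LOC100912557 (now Atp5mpl, a small subunit of ATP synthase), LOC100912167, LOC102547703, and LOC120102377. Whether strand was used in the counting is not given in the sources used here, and reads of a lncRNA and of a coding gene that overlaps it cannot then be told apart.

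The mature miRNAs inside the 10 hosts are annotated products of these loci, and those of the hosts described here are shown, from RefSeq, with the seed (bases 2 to 8) in capitals. H19 holds Mir675 at chr1:207161800-207161821 (GRCr8, minus strand, the 5p arm). LOC120094648 holds miR-206 at chr9:30590747-30590768 and miR-133b at chr9:30594629-30594650 (plus strand, the 3p arms), both known as miRNAs of skeletal muscle.
rno-miR-675-5p: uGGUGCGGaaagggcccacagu
rno-miR-675-3p: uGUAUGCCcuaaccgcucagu
rno-miR-206-3p: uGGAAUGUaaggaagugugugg
rno-miR-133b-3p: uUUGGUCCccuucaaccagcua

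LOC120098113, now named Carmn, holds miR-143 and miR-145 of smooth muscle. LOC120099372 holds miR-223 of myeloid cells, at chrX:65151450-65151470 (plus strand, the 3p arm). LOC103692514 holds miR-34a, a target of p53, and LOC120102934 holds miR-101a.
rno-miR-143-3p: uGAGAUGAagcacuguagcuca
rno-miR-145-5p: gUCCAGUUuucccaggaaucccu
rno-miR-223-3p: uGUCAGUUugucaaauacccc
rno-miR-34a-5p: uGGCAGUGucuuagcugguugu
rno-miR-101a-3p: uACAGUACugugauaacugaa

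Lnc215 and LOC120097935 hold let-7 genes on different chromosomes, chr8 and chr17. Their 3 mature 5p forms, let-7a, let-7f, and let-7d, share 1 seed and differ outside it. Lnc215 also holds miR-100.
rno-let-7a-5p: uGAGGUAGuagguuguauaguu
rno-let-7f-5p: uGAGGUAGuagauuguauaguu
rno-let-7d-5p: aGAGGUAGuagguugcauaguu
rno-miR-100-5p: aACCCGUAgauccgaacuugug

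The remaining 2 hosts lie in the imprinted region of chr6. RGD1566401, which RefSeq names Meg3, holds miR-770, and LOC102555254 spans the neighbouring cluster of snoRNA and miRNA genes, among them miR-379 and miR-411.
rno-miR-770-5p: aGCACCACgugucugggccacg
rno-miR-379-5p: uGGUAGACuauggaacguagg
rno-miR-411-5p: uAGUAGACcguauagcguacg

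The libraries measured the hosts and not these products. Of the hairpins inside the hosts, Mir770 and Mir206 had a row in the count table, with at most 2 reads in any library.

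H19 dominated the lncRNA reads. It had 5644285 reads, 215 times those of the next gene, LOC120098827 with 26281, and made up 93.0% of the reads of the 200. Its CPM was 30526, 29353, and 31719 in the control libraries of day 3, 7, and 14. It was 83288, 5570, and 3345 in the d-SMG libraries of the same days. It was 19047, 30628, and 5532 with s-GAG, and 21139, 36440, and 4175 with Alg. The control libraries thus lay close together, the d-SMG library of day 3 lay above all others, and on day 14 all 3 dressings lay below the control. The share of reads on H19 went from 0.389% in the d-SMG library of day 14 (95% Clopper-Pearson interval 0.3854% to 0.392%) to 5.96% in that of day 3 (5.947% to 5.969%). These intervals cover counting error only, since reads carry no molecular identifiers. It had more reads than any other gene in the control library of day 14 and in the s-GAG library of day 7.

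**Figure D1:**
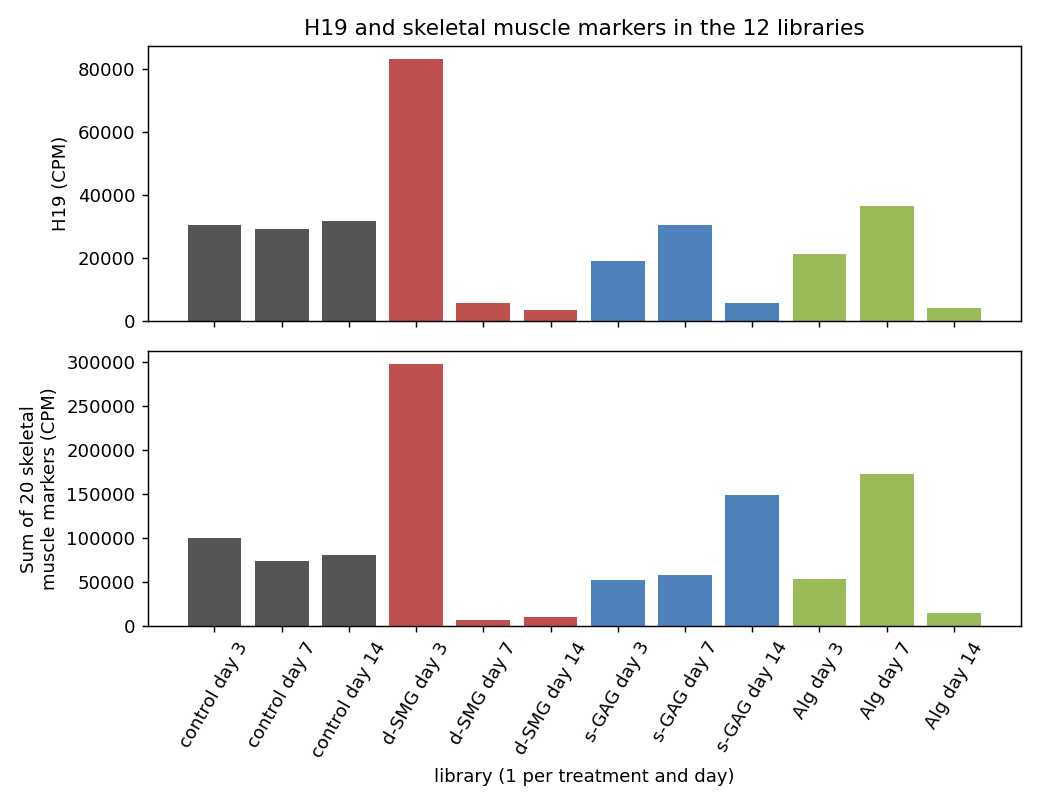
H19 (upper panel) and the sum of 20 skeletal muscle markers (lower panel), both in CPM on linear axes, in the 12 libraries coloured by treatment, 1 bar per library with no error bar because there is 1 library per treatment and day. The bar of d-SMG day 3 is the highest in both panels, and s-GAG day 14 is low for H19 (5532 CPM) and high for the markers (149411 CPM).

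On day 14 the log2 ratio of H19 to the control was -3.25 with d-SMG, -2.52 with s-GAG, and -2.93 with Alg, and these share 1 control library. On day 3 it was 1.45, -0.68, and -0.53. Over the 3 days the fitted log2 change was -1.11 ± 1.17 (SE) with d-SMG, -1.29 ± 1.06 with s-GAG, and -1.25 ± 1.08 with Alg. None of these passed (adjusted p = 1.0, 0.672, and 1.0 in edgeR's quasi-likelihood test), so the differences did not exceed the spread between days. Day 14 against day 3, over the 4 treatments, gave -2.25 ± 1.02 (unadjusted p = 0.0524, adjusted p = 0.882 in the same test).

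The skeletal muscle marker sum was 100693, 74224, and 80694 CPM in the control libraries, and 297543, 7596, and 10493 CPM with d-SMG. It was 52333, 57937, and 149411 CPM with s-GAG, and 53966, 172521, and 15099 CPM with Alg. The markers and H19 were both high in d-SMG day 3 and Alg day 7 and both low in d-SMG day 7, d-SMG day 14, and Alg day 14, but s-GAG day 14 held many marker reads and little H19. The part of muscle tissue in the H19 result was not tested. Igf2, a coding neighbour of H19, ranged from 7.88 CPM in Alg day 14 to 94.2 CPM in d-SMG day 3. Mrpl23, the coding neighbour on the other side, ranged from 14.1 CPM in s-GAG day 3 to 45.3 CPM in s-GAG day 14.

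The other 199 genes together took 0.156% to 0.216% of the reads of a library, a narrow range beside that of H19. Among all lncRNAs without H19 they held 63.9% of the reads. The 10 genes with the most reads were H19, LOC120098827, Oip5-as1, LOC102550180, LOC102557516, LOC100909928, LOC103691688, LOC100911177, Ndufb1, and LOC100911864. Per gene length the order changed. The highest mean FPKM (fragments per kilobase of gene, scaled by the library total) was 9237 for H19, followed by 93.0 for Ndufb1, 84.2 for LOC100911177, 46.4 for LOC102550180, and 35.0 for LOC103691688. Gas5 followed with 32.3, Mtln (which encodes the mitochondrial micropeptide mitoregulin) with 26.6, LOC120102992 with 25.7, LOC120098827 with 24.0, and LOC100909970 with 22.3. The median over the 200 was 1.21 FPKM, 22 reached 10 FPKM, and 89 stayed below 1 FPKM.

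The 200 genes differed widely in how far they moved. The range of a gene, its highest minus its lowest log2 CPM over the 12 libraries, had a median of 2.55, and was at least 4 for 48 of the 200. Among all 12387 genes with at least as many reads as the last of the 200, the median was 1.84, and 11.1% reached 4. Since the reads chose the genes, this is a description. The steadiest were LOC103693867 with a range of 0.58, LOC102547242 with 0.81, Tug1 with 0.82, and Oip5-as1 and Pvt1 with 0.84 each. Oip5-as1, which binds the RNA-stabilizing protein HuR, stayed between 55.9 and 100 CPM. Tug1, a nuclear lncRNA linked to Polycomb repression, stayed between 5.08 and 9.04 CPM, and Pvt1, the neighbour of Myc, between 2.46 and 4.51 CPM.

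**Figure D2:**
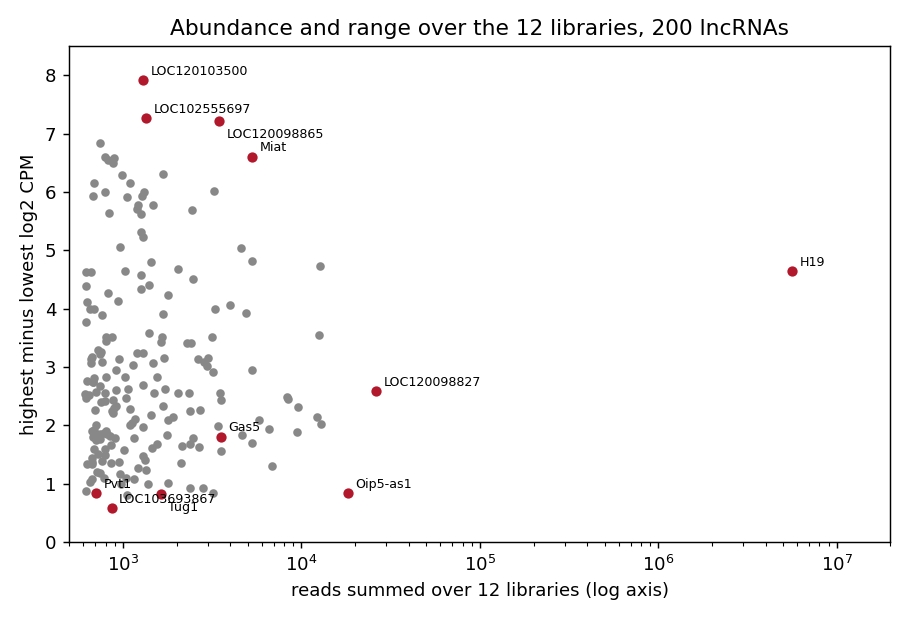
Reads summed over the 12 libraries (log axis) against the range of log2 CPM over those libraries, 1 point for each of the 200 lncRNAs, with named genes in red. H19 stands far to the right with a range of 4.64, and the widest range, 7.91, is that of LOC120103500, a gene of 1298 reads.

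The widest ranges belonged to LOC120103500 (7.91), LOC102555697 (7.26), LOC120098865 (7.21), LOC120100921 (6.83), and Miat (6.61). Miat, a nuclear lncRNA known from heart and retina that binds splicing factors, was at 1.32, 138, and 12.9 CPM in the control libraries of day 3, 7, and 14. It was at 14.7, 56.4, and 11.9 CPM with d-SMG, at 17.9, 6.75, and 6.88 CPM with s-GAG, and at 3.26, 41.5, and 2.77 CPM with Alg. In 3 of the 4 treatments the day 7 library was the highest, and with s-GAG it was the lowest. LOC120098865 went from 0.167 CPM in d-SMG day 3 to 39.9 CPM in control day 14. LOC120100921, which overlaps Ntng1, went from 0.0626 CPM in d-SMG day 14 to 18.8 CPM in d-SMG day 3.

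The library in which a gene was highest was unevenly spread. It was s-GAG day 14 for 43 of the 200 genes (21.5%, against 27.1% of the 12387 genes above), d-SMG day 3 for 30 (15%, against 17.1%), and control day 14 for 29 (14.5%, against 9.12%). It was s-GAG day 3 for 0 genes (against 1.29%) and Alg day 14 for 2 (1%, against 8.39%). The lowest library was s-GAG day 14 for 52 genes (26.0%, against 34.4%), Alg day 14 for 32 (16%, against 5.99%), and d-SMG day 3 for 27 (13.5%, against 14.7%). In 5 genes more than 50% of all reads came from 1 library, and the most extreme was LOC120100692 with 79.0% in s-GAG day 7. Without its own highest library, 54 of the 200 would fall below the 613 reads of the last gene. The reads of the library in which they are high thus helped to choose these genes. That limit itself includes the reads of the library left out. Ranked again without each library in turn, nearly all of the 200 stayed, so not all of the 54 owe their place to 1 library.

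The comparisons over the 3 days ask whether each dressing moved these lncRNAs in the same direction throughout healing. All 200 genes were tested among 16110. None passed an FDR of 0.05 with d-SMG, s-GAG, or Alg in edgeR's quasi-likelihood test, and no gene of any kind did (0.0% called in each of the 3 comparisons). DESeq2, run as an alternative, called 0 of the 200 with d-SMG (against 0.0355% of all genes it tested), 4 with s-GAG (against 1.31%), and 2 with Alg (against 0.367%), all higher with the dressing. At an unadjusted p under 0.05, 4 of the 200 stood out with d-SMG (3 higher, 1 lower, against 1.35% of all genes). The count was 22 with s-GAG (11 higher, 11 lower, against 9.26%), and 8 with Alg (6 higher, 2 lower, against 3.12%). These shares are near the background. They moved with single libraries, and the count was 20 with d-SMG without d-SMG day 3 (against 5.14%), and with s-GAG it was 12 without control day 14 (against 5.43%) and 36 without s-GAG day 3 (against 14.3%). The median log2 change of the 200 was 0.012 with d-SMG, -0.154 with s-GAG, and -0.0124 with Alg, beside -0.0299, 0.00206, and -0.0274 over all genes. Without control day 14 the medians of the 200 were 0.209, 0.19, and 0.24, so the sign with s-GAG rested on that library. With Alg the sign also turned without Alg day 14 (0.168) and without s-GAG day 3 (0.0125).

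Among the genes higher with a dressing, those with the smallest p were the same with s-GAG and Alg, and none passed the adjustment. LOC103692636, a lncRNA between the oxygen sensor gene Egln3 and Eapp, was at 0.425, 0.61, and 1.21 CPM in the control libraries. It was at 0.583, 5.5, and 10.3 CPM with d-SMG, at 4.42, 12.4, and 6.75 CPM with s-GAG, and at 3.95, 6.1, and 5.42 CPM with Alg. All s-GAG and Alg libraries lay above all control libraries, and with d-SMG those of day 7 and 14 did. The fitted log2 change was 3.46 ± 0.69 with s-GAG (adjusted p = 0.408), 2.92 ± 0.68 with Alg (adjusted p = 1.0), and 2.54 ± 0.68 with d-SMG (adjusted p = 1.0), in edgeR's quasi-likelihood test.

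LOC103691200, which overlaps the ciliary gene Dnajb13, had a like pattern. It was at 0.255, 0.271, and 1.31 CPM in the control libraries, and at 0.499, 3.16, and 10.4 CPM with d-SMG. It was at 5.9, 13.4, and 4.22 CPM with s-GAG, and at 8.59, 2.98, and 6.75 CPM with Alg, again with all s-GAG and Alg libraries above all controls. The fitted log2 change was 4.13 ± 1.04 with s-GAG (adjusted p = 0.417) and 3.7 ± 1.02 with Alg (adjusted p = 1.0) in edgeR's quasi-likelihood test. Dnajb13 itself stayed between 0 and 0.34 CPM. LOC120098829, which overlaps the class I histocompatibility gene RT1-CE12, was at 6.04, 4.34, and 3.69 CPM in the control libraries and at 2.5, 12.2, and 20.1 CPM with d-SMG. It was at 21.1, 23.0, and 8.64 CPM with s-GAG and at 13.9, 15.0, and 11.8 CPM with Alg, all above the controls. Genes of this family share near-identical sequence, so its counts are uncertain.

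LOC102555697 was at 0.255, 0.136, and 2.08 CPM in the control libraries and at 0, 4.83, and 8.45 CPM with d-SMG. It was at 5.21, 15.8, and 9.94 CPM with s-GAG and at 1.33, 7.62, and 3.53 CPM with Alg. The s-GAG libraries lay above all controls, and the other dressings overlapped them. LOC120100692, which holds a snoRNA, was at 0.128, 0.406, and 1.02 CPM in the controls and at 2.15, 17.9, and 1.56 CPM with s-GAG, where the day 7 library of 702 reads decided the size. Its other 11 libraries held 187 reads, below the 613 of the last gene, so it is among the 200 only through that s-GAG library, and its being higher with s-GAG is a description. LOC103692636, LOC103691200, and LOC102555697 would also fall below 613 reads without the s-GAG libraries as a group. That limit itself includes s-GAG reads, and the ranking was not repeated without these libraries. Since their s-GAG reads helped to choose these genes, their being higher with s-GAG is likewise a description.

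**Figure D3:**
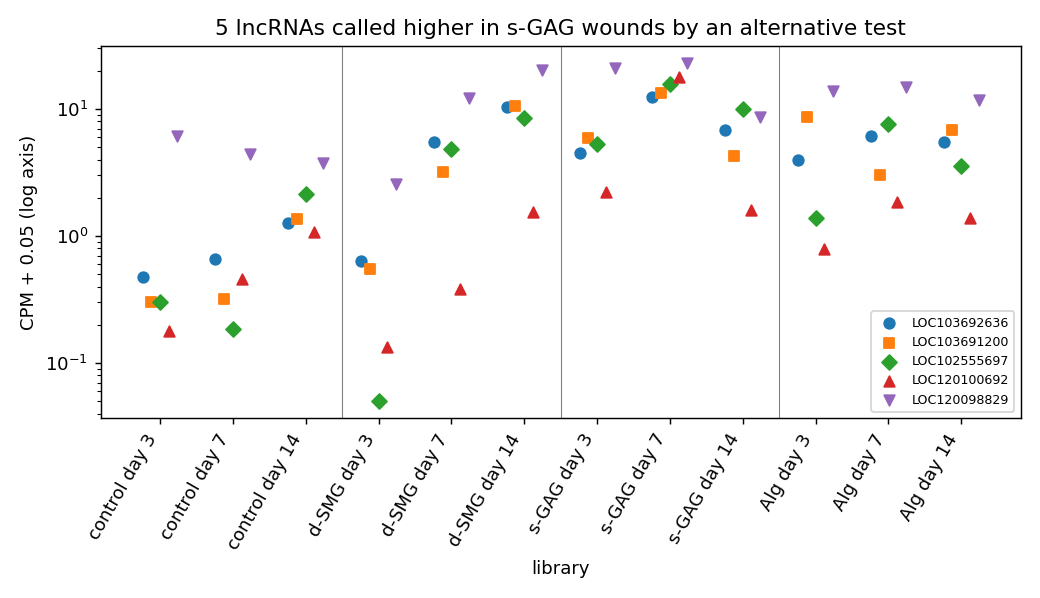
CPM plus 0.05 (log axis) of 5 lncRNAs in the 12 libraries, 1 point per gene and library with no error bar. These 5 were called higher with s-GAG by DESeq2 or when 2 libraries were left out of the quasi-likelihood test, and were not called with all 12 libraries. LOC120100692 is among the 200 only through s-GAG day 7. The s-GAG reads of LOC103692636, LOC103691200, and LOC102555697 were part of the sum that ranked these genes. Each of the 3 s-GAG points of a gene lies above its 3 control points.

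A rule free of the fit asked which genes differed from the control at least 2-fold in the same direction on 3 of 3 days. With s-GAG 8 of the 200 did so, against 3.38% of all genes, with Alg 3 of 200, against 1.41%, and with d-SMG 0 of 198, against 0.205%. These counts are near the shares over all genes. The genes higher with s-GAG were LOC103692636, LOC103691200, LOC102555697, LOC120098829, and LOC120099785, and those lower were LOC103691241, LOC102550895, and LOC102556395. The 3 with Alg were LOC103692636, LOC103691200, and LOC120098829, all higher. Both comparisons used the same 3 control libraries, and the s-GAG reads of LOC103692636, LOC103691200, and LOC102555697 helped to choose these genes. Scaled by library size, the counts stayed at 8, 3, and 0, but with s-GAG LOC120098829, LOC120099785, and LOC102550895 gave way to LOC100911553, LOC102550580, and LOC108352579.

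Other genes with the smallest p in the quasi-likelihood test were mostly lower. With s-GAG LOC108352579, which overlaps the methyltransferase gene Smyd3, gave a log2 change of -2.09 ± 0.65 (adjusted p = 0.452) and LOC108351200, beside Rhob, -1.12 ± 0.35 (adjusted p = 0.452). With Alg LOC102550895, beside the interferon regulator Irf1, gave -1.27 ± 0.49, and LOC100910973, among the Ms4a genes, -1.59 ± 0.62 (adjusted p = 1.0 for both, quasi-likelihood test). LOC100910973 was at 40.5 CPM in control day 3 and at 3.69 to 9.61 CPM in the other 11 libraries, so that library decided its change. With d-SMG LOC103690969, beside Sod2, gave -1.2 ± 0.38, and LOC102555978, which overlaps Adamts9, -1.03 ± 0.54, while LOC100912312, which overlaps Dennd2d, was higher at 1.24 ± 0.39 (adjusted p = 1.0 for each in the same test).

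The comparisons between days ask what moved with time whatever the dressing. No gene passed an FDR of 0.05 in edgeR's quasi-likelihood test (0.0% called in each of the 3 comparisons), and DESeq2 called 0 of the 200 in each (against 0.071% for day 7 against day 3, 0.103% for day 14 against day 7, and 0.201% for day 14 against day 3). At an unadjusted p under 0.05 there were 7 of the 200 genes for day 7 against day 3 (4 higher, 3 lower, against 1.81% of all genes). There were 10 for day 14 against day 7 (2 higher, 8 lower, against 3.12%) and 11 for day 14 against day 3 (6 higher, 5 lower, against 4.95%). At least 2-fold in the same direction from day 3 to day 14 in 4 of 4 treatments was found in 0 of the 200 genes, against 0.502% of all genes.

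The smallest p belonged to LOC100911990, on chromosome 11. It was at 2.81, 2.1, and 4.32 CPM in the control libraries of day 3, 7, and 14, and at 2.16, 1.91, and 4.44 CPM with d-SMG. It was at 2.38, 2.19, and 7.47 CPM with s-GAG and at 3.9, 3.25, and 6.68 CPM with Alg. In each treatment day 14 was the highest and day 7 the lowest, and the log2 change was 1.3 ± 0.29 from day 7 to day 14 (adjusted p = 0.904) and 1.06 ± 0.29 from day 3 to day 14 (adjusted p = 0.882, quasi-likelihood test). Miat gave 2.7 ± 1.08 from day 3 to day 7 (adjusted p = 0.999 in that test), with s-GAG moving the other way. LOC102554570, which overlaps Adamts9, gave -2.41 ± 0.65 and LOC108352579 -2.08 ± 0.58 from day 7 to day 14 (adjusted p = 0.904 for both, quasi-likelihood test). LOC102548586 and LOC120100783 gave -1.24 ± 0.47 and -0.8 ± 0.31 from day 3 to day 7, and LOC120100692 2.05 ± 0.84 (adjusted p = 0.999 for the 3, same test). LOC102548586 gave 1.16 ± 0.46 from day 7 to day 14. From day 3 to day 14 LOC120099785 gave 1.91 ± 0.69, LOC102554685, which overlaps Serpinb6a, -1.43 ± 0.44, and LOC102547925 -1.47 ± 0.51 (adjusted p = 0.882 for the 3, same test).

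On single days, where no test is possible, genes at least 4-fold from the control were counted among those with at least 10 reads in the pair of libraries. A prior count of 2 was added to each library. With d-SMG on day 3, 19 of 198 compared were higher, against 2.15% of all genes, and 13 were lower, against 5.93%. Scaled by library size alone, 10 were higher (against 1.11%) and 14 lower (against 7.55%). On day 7, 4 of 200 were higher, against 1.53%, and 10 were lower, against 1.65%, or 5 and 7 by library size (against 2.05% and 1.31%). On day 14, 7 were higher, against 2.54%, and 21 were lower, against 4.74%.

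With s-GAG, 13 of 200 were higher on day 3, against 3.8%, and 10 were lower, against 1.9%, or 17 and 8 by library size (against 4.55% and 1.44%). On day 7, 10 were higher, against 4.57%, and 9 were lower, against 2.97%. On day 14, 19 were higher, against 9.53%, and 38 were lower, against 13.9%, or 8 and 50 by library size (against 5.83% and 18.8%). With Alg, 17 of 200 were higher on day 3, against 2.32%, and 10 were lower, against 1.8%. On day 7, 12 were higher, against 2.37%, and 4 were lower, against 2.36%. On day 14, 3 were higher, against 2.77%, and 24 were lower, against 3.49%.

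**Figure D4:**
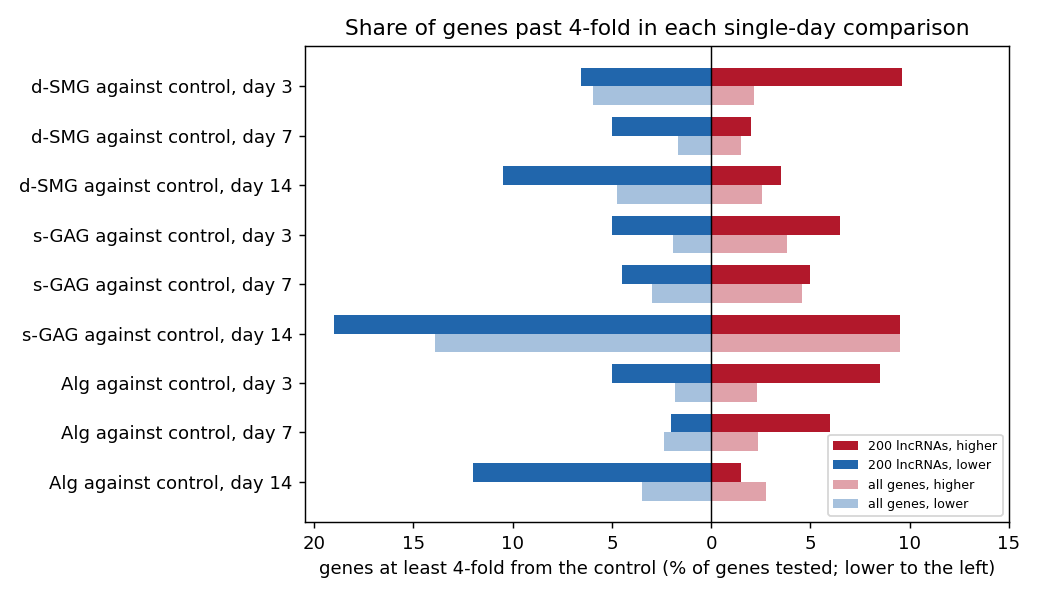
Share of genes at least 4-fold from the control library of the same day, in percent of the genes tested, for the 200 lncRNAs (dark bars) and for all genes (light bars), higher to the right in red and lower to the left in blue, with 1 library on each side of a comparison. The longest dark bar is that of genes lower with s-GAG on day 14 (38 of 200 genes), and the share of the 200 lower exceeds that of all genes for each dressing on day 14.

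The median log2 ratio of the 200 on day 14 was -0.128 with d-SMG, -0.59 with s-GAG, and -0.376 with Alg, beside -0.0129, -0.093, and 0.00642 over all genes. By library size these medians of the 200 were 0.0533, -0.966, and -0.307, so that with d-SMG the sign turned. H19 was among the genes lower in all 3. The control library of day 14, shared by these 3 comparisons, was also the one in which 29 of the 200 were highest.

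Several of the largest single-day differences came from 1 library that stood alone. LOC120103500, which overlaps Klhl29, was at 40.0 CPM (825 reads) in control day 14 and at 0.063 to 4.54 CPM in the other 11 libraries. On day 14 its log2 ratio to the control was -4.25 with d-SMG, -6.17 with s-GAG, and -7.91 with Alg. With 1 read in Alg day 14, that CPM ratio was 634, with an exact counting interval from 113 to 25076. LOC108352323, which overlaps the sialyltransferase gene St3gal6, was likewise highest in control day 14, at 38.8 CPM, and at 0.39 to 8.74 CPM elsewhere. LOC100912629, which overlaps Mapt, was at 21.2 CPM in control day 3 and at 0.125 to 5.0 CPM elsewhere, and on day 3 its log2 ratio was -6.28 with s-GAG (3 reads, CPM ratio 125, counting interval 42.4 to 607) and -4.1 with Alg. LOC100911030 was at 18.1 CPM in control day 3 and at 0.26 to 3.98 CPM elsewhere, and LOC100910986 at 22.9 CPM there and at 2.04 to 7.83 CPM elsewhere. Control day 3 also held the highest sum of 18 interferon response genes, 4908 CPM against 197 to 1309 CPM. The part of that response in these values was not tested. Without the control library that stood alone, LOC120103500, LOC100912629, and LOC100911030 would each fall below the 613 reads of the last gene taken. Each is included only through that library, so its being lower with the dressings on that day is a description.

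LOC120098896, on chromosome 20, showed the opposite shape, being all but absent from 2 libraries. It had 2 reads in control day 3 and 1 read in Alg day 14, and 49 to 191 reads in the other 10 libraries. On day 3 its CPM was 48.0 times that of the control with d-SMG (counting interval 12.6 to 407), 60.7 times with s-GAG (16.3 to 509), and 102 times with Alg (27.9 to 851). On day 14 it was lower with Alg, with a CPM ratio of 138 (24.5 to 5495). LOC120100018, beside the pigment cell gene Mlana, had 0 reads in d-SMG day 3 and 78 in control day 3, and was at least 13.3-fold lower against a floor of 3 reads in that library. It was at 1.82 to 8.01 CPM in the other 11 libraries.

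On day 7, LOC102555697 had 2 reads in the control, and its CPM was 117 times higher with s-GAG (counting interval 32.1 to 965), 56.3 times with Alg (15.2 to 470), and 35.6 times with d-SMG (9.62 to 298). Miat had a log2 ratio of -4.34 on that day with s-GAG, with 265 reads against 2042 in the control. LOC120097004 was at 16.3 CPM in control day 7 and 16.2 CPM in d-SMG day 7, and at 0.0649 to 2.59 CPM in the other 10 libraries. Its log2 ratio on day 7 was -3.6 with s-GAG and -2.6 with Alg. LOC120095687, beside Bcl6, had a log2 ratio of 3.19 and LOC103691241, which overlaps Tacc2, -2.73 with Alg on day 7. On day 14, LOC102548352, which overlaps Plcd1, had a log2 ratio of 3.13 and LOC100909970, which overlaps Tpi1l2, 2.72 with s-GAG, and LOC102547511 had 2.08 with Alg.

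None of the 10 miRNA hosts passed the test, and they lay on both sides of the control in each single-day comparison. Among the 10, the number past 4-fold on a single day was at most 1 higher and at most 4 lower, the latter with Alg on day 14, when 3.49% of all genes and 24 of the 200 were that much lower. On that day 9 of the 10 were below the control, while 62 of the 200 and 8243 of 16326 genes were above it. The median log2 ratio of the 10 was -1.34, beside -0.376 for the 200. From day 7 to day 14 the fitted change was negative for 10 of 10, with a median of -0.557. It was positive for 80 of the 200 and 8235 of 16110 genes. When 1 library was left out, 0 to 2 of the 10 were positive and their median stayed between -0.686 and -0.335. The 10 were measured in the same libraries and were not tested as a set. For the 200 the median was -0.16, or 0.0182 without Alg day 14 and -0.298 without control day 14. In the fits none of the 10 had an unadjusted p under 0.05 in any of the 6 comparisons by the quasi-likelihood test. LOC120094648, the host of miR-206 and miR-133b, was at 30.9, 16.5, and 38 CPM in the control libraries. It was at 35.9, 5.31, and 13.4 CPM with d-SMG, at 10.9, 22.3, and 5.2 CPM with s-GAG, and at 19.2, 54.2, and 3.47 CPM with Alg. As with H19, the lowest values included Alg day 14, s-GAG day 14, and d-SMG day 7, and the s-GAG day 14 value was low beside its muscle marker sum.

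LOC120099372, the host of miR-223, was highest in d-SMG day 7 at 9.47 CPM and lowest in Alg day 7 at 1.66 CPM. The sum of 11 macrophage markers was also highest in d-SMG day 7, at 4815 CPM, and was 1003 CPM in Alg day 7, but its lowest value was 694 CPM in s-GAG day 14. The sum of 8 neutrophil markers was highest in Alg day 14, at 163 CPM, with 102 CPM in d-SMG day 7 and 65.1 CPM in Alg day 7. The fitted log2 change of LOC120099372 with s-GAG was -0.93 ± 0.43 (adjusted p = 0.545, quasi-likelihood test). Carmn (LOC120098113) stayed between 5.23 and 16.9 CPM, and the let-7 host LOC120097935 between 1.51 and 3.98 CPM, the narrowest range of the 10. Lnc215, the other let-7 host, ranged from 1.17 CPM in s-GAG day 14 to 14.4 CPM in control day 7. Meg3 was at 2.89 CPM in control day 3, 11.9 CPM in control day 7, and 1.58 CPM in Alg day 14, and its neighbour LOC102555254 was at 4.46, 14.0, and 2.96 CPM in the same libraries. LOC103692514 ranged from 1.32 to 6.66 CPM and LOC120102934 from 1.76 to 7.95 CPM.

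The snoRNA hosts lay higher in s-GAG day 14. Against the control of that day, 11 of 12 were higher, against 7921 of 16517 among all genes. Of the 12, 4 were at least 4-fold higher (against 9.53% of all genes), or 2 by library size (against 5.83%). The median log2 ratio was 1.41 (1.02 by library size), beside -0.59 for the 200 and -0.093 for all genes. With d-SMG on day 14, 12 of 12 were higher (against 8095 of 16395 genes), 0 of them past 4-fold, with a median of 0.635. With Alg it was 8 of 12 (against 8243 of 16326), with a median of 0.198. On day 3 the median was -0.428 with d-SMG over 11 tested genes, -0.585 with s-GAG, and 0.0681 with Alg. Over the 3 days with s-GAG the median fitted log2 change was 0.676, and 11 of 12 were higher, against 8072 of 16110 genes. Of the 12, 3 had an unadjusted p under 0.05 in the quasi-likelihood test (against 9.26% of all genes), none of them passing the adjustment. Without s-GAG day 14 that median was 0.0314, so it rested on this library. With d-SMG and Alg the fitted medians were 0.142 and 0.107. Without control day 14, which the day 14 ratios share, they were -0.128 and -0.174.

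**Figure D5:**
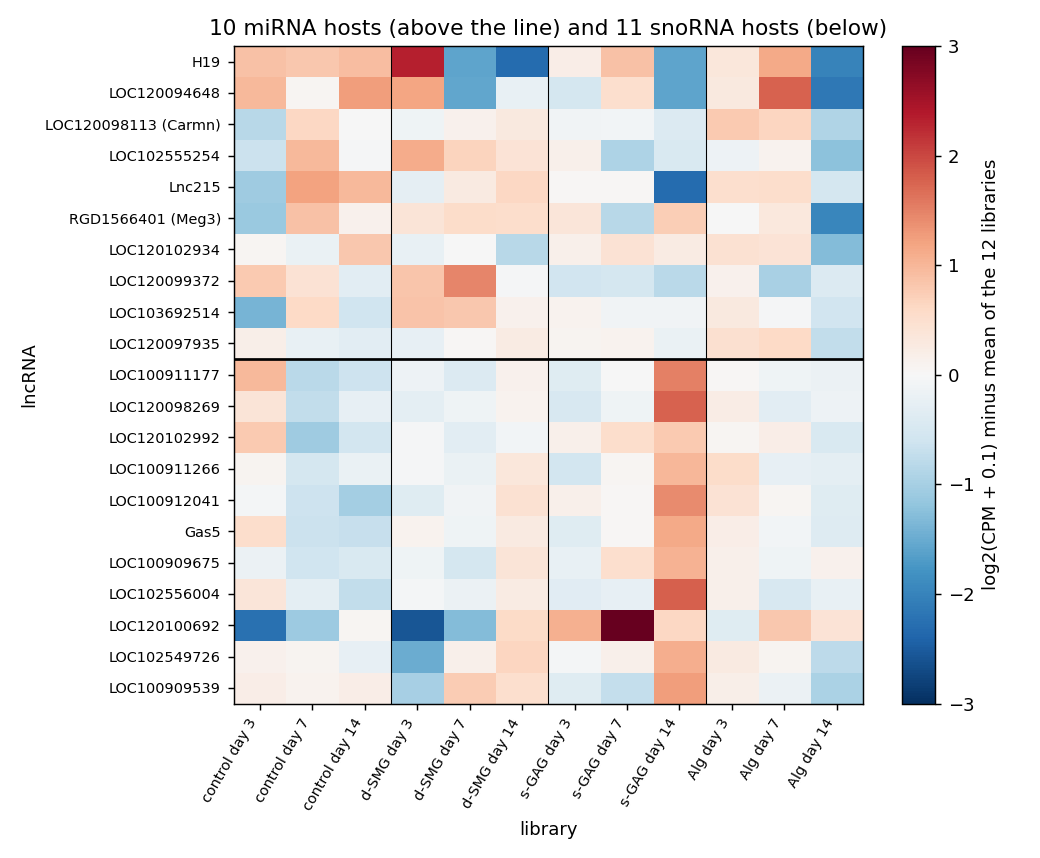
log2(CPM + 0.1) minus the mean of the 12 libraries (colour scale from -3 to 3) for 10 lncRNAs that hold miRNA genes (above the black line) and 11 that hold only snoRNA genes (below), in columns of 1 library each. The s-GAG day 14 column is red for all 11 of the lower rows, while H19 and LOC120094648 are blue there.

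LOC100911177, beside Znfx1 and holding Snord12 and Snord12c, was at 73.4, 21.3, and 24.2 CPM in the control libraries. It was at 33.6, 28.1, and 40.4 CPM with d-SMG, at 28.7, 36.7, and 107 CPM with s-GAG, and at 38.4, 34.1, and 33.1 CPM with Alg. The s-GAG library of day 14 was the highest, and control day 3 the next. Gas5, a growth arrest lncRNA that holds Snord78 and Snord81, was at 20.9, 9.28, and 8.97 CPM in the controls, at 15.5, 13.2, and 17.5 CPM with d-SMG, at 11.3, 14.9, and 31.7 CPM with s-GAG, and at 16.5, 13.7, and 11.0 CPM with Alg, with the same order at the top. LOC120098269, beside Epb41l4a, reached 112 CPM in s-GAG day 14 and was at 19.8 to 42.7 CPM elsewhere. LOC100912041, beside Slc3a2 and holding Snord26, Snord27, and Snord30, reached 38.2 CPM there and was at 6.98 to 19.6 CPM elsewhere. Ndufb1 and Mtln, both of which encode mitochondrial proteins, were also highest in s-GAG day 14, at 85.7 and 47.1 CPM, against 23.0 to 66.4 and 5.74 to 25.6 CPM. In that library 9.53% of all genes were at least 4-fold higher and 13.9% at least 4-fold lower than in the control.

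Several lncRNAs beside or across muscle genes were high in the libraries rich in muscle markers. They were chosen after their values were seen. LOC102555216 overlaps Myh1 and lies beside Myh4, genes of fast myosin heavy chains. It was at 6.59, 5.55, and 6.16 CPM in the controls, at 24.6, 0.383, and 0.626 CPM with d-SMG, at 5.27, 2.52, and 10.9 CPM with s-GAG, and at 1.33, 26.4, and 0.441 CPM with Alg. Myh4 had its 2 highest values in the same libraries, 107151 CPM in d-SMG day 3 and 85320 CPM in Alg day 7. LOC102553350, beside the muscle kinase gene Mylk2, reached 79.8 CPM in d-SMG day 3 and 33.1 CPM in Alg day 7 and was at 1.14 to 1.44 CPM in d-SMG day 7, d-SMG day 14, and Alg day 14. LOC120093580, beside the myogenic factor gene Myf6, was at 32.6 CPM in d-SMG day 3 and at 0.563 to 7.56 CPM elsewhere. Across the 12 libraries the Pearson correlation of log2 CPM was 0.922 for LOC102555216 with Myh4, 0.939 for LOC102553350 with Mylk2, and 0.938 for LOC120093580 with Myf6, descriptions over libraries that share tissue content. These are among the highest of all pairs of neighbours, and LOC103693350, which lies between Myh3 and Myh2, gave 0.162 with Myh3 and 0.734 with Myh2. LOC102547852, with no RefSeq match, was also highest in d-SMG day 3, at 26.3 CPM, followed by Alg day 7 at 11.0 CPM. LOC100910189 and LOC102548467 had their 3 highest values in control day 3, d-SMG day 3, and Alg day 7, at 20.9, 14.9, and 8.95 CPM and at 13.1, 17.7, and 14.1 CPM. The part of muscle tissue in these values was not tested.

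LncRNAs and the coding genes they overlap ranged from opposite to like patterns. Over 63 pairs of a lncRNA and a coding gene that overlaps it, the correlation of log2 CPM across the 12 libraries had a median of 0.203 and ranged from -0.816 to 0.909, and 12 pairs reached 0.7. Over 280 pairs with the nearest coding genes on either side, the median was 0.116. LOC120098827, the lncRNA second in reads, overlaps Cdsn, the gene of corneodesmosin in cornified epidermis. It was at 78.0, 96.5, and 114 CPM in the controls, at 31.1, 118, and 95.7 CPM with d-SMG, at 103, 166, and 64.7 CPM with s-GAG, and at 124, 97.7, and 188 CPM with Alg. Both it and Cdsn were lowest in d-SMG day 3, where the keratinocyte sum was also lowest. The correlation of this pair was 0.808, so it is among the 12 that reached 0.7. The lncRNA spanned 31.1 to 188 CPM over the libraries, while Cdsn spanned 0.583 to 115 CPM.

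Of the lncRNAs on 6 lists of known names, those found among the 200 by the symbols of the count table were Oip5-as1, Miat, and Tug1 (nuclear and RNA-processing RNAs), Gas5 (snoRNA hosts), H19 (imprinted), and Pvt1 and Crnde (others). By their RefSeq names 3 more were on the lists, namely Meg3 (imprinted), Carmn (miRNA hosts), and LOC102555331 at rank 93, which RefSeq names Jpx, an activator of Xist from the X inactivation centre. LOC102555331 ranged from 3.25 CPM in s-GAG day 14 to 7.99 CPM in d-SMG day 3. None of these 10 passed the adjustment in the quasi-likelihood test in any of the 6 comparisons, and at an unadjusted p under 0.05 only Miat did. Crnde, which overlaps the homeobox gene Irx5, ranged from 7.31 CPM in Alg day 14 to 29.4 CPM in d-SMG day 3. The nearest listed genes outside the 200, by symbol, were Ftx at rank 220, Dancr at rank 255, and Tincr, a lncRNA of epidermal differentiation, at rank 312.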

How the data were processed

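RNA of wound tissue was measured in 12 stranded, rRNA-depleted libraries sequenced as paired reads on an Illumina instrument. The authors deposited read counts per gene, whole numbers without normalization, and FPKM, scaled by gene length and library total. The submitters' processing notes name bcl2fastq, FastQC, TopHat2, and edgeR. The genome build, how reads were assigned to genes, whether strand was used, and which genes counted as expressed are not given in the sources used here. Each table holds 1 further column of values that matches no sample and was not used.

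The 200 lncRNAs and the gene lists were chosen with earlier results of these data known. Counts were fitted with edgeR 4.0.16 (R 4.3.3; quasi-likelihood test, terms for day and treatment, filterByExpr, TMM, Benjamini-Hochberg FDR 0.05 over all genes tested), so p-values measure the spread between days or treatments. The SE of a log2 change is its size divided by the square root of F. The script was tested on simulated data. Single-day ratios are log2 TMM CPM with a prior count of 2 and carry no test. Intervals are exact (Clopper-Pearson, 95%, scipy 1.17.1) and cover counting error only. Alternatives were RLE size factors, DESeq2 1.42.0, no low-count filter, no replicate block, leaving out libraries, library size, a prior count of 0.5, FPKM with a pseudocount of 0.1, a minimum of 50 reads, and a log2 ratio of 1. Genes named were the 10 with most reads and the 10 with highest mean FPKM, the 2 smallest p in each direction of each fit, the 2 largest rises and falls of each single-day comparison, the 5 widest and 5 narrowest ranges, genes on lists of known lncRNAs, and those at the limit of 200. Other names were added after their values were seen, among them the hosts and genes beside muscle genes. Annotation and miRNA sequences are from RefSeq (GRCr8). Totals of 13748887 to 38302461 reads set the precision.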

Additional observations from a re-analysis of the deposited data

Results flagged for a closer look

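LOC120103500 and LOC120095971 were picked out because all 3 dressings lay at least 2-fold above the control on day 3 and at least 2-fold below it on day 14. For LOC120103500 the mean log2 ratio of the 3 dressings was 2.19 on day 3 and -6.11 on day 14, a difference of -8.3. For LOC120095971, on chromosome 12, it was 1.5 and -2.32, a difference of -3.82. The 3 ratios of a day share 1 control library, and the difference between days was not tested. Control day 14 held 63.6% of the 1298 reads of LOC120103500. Without that library LOC120103500 would fall below the 613 reads of the last gene taken. It is thus included only through control day 14, and its being lower with all 3 dressings on that day is a description. LOC120095971 was at 3.48, 5.01, and 15.1 CPM in the control libraries of day 3, 7, and 14, at 13.1, 4.4, and 3.82 CPM with d-SMG, at 8.22, 8.1, and 0.909 CPM with s-GAG, and at 9.48, 8.49, and 7.0 CPM with Alg.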

How the results depend on the processing

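With 1 library per treatment and day, no value of a single day has a replicate check. The count of the 200 called over the days stayed at 0 in each of the 6 comparisons with RLE size factors, without the low-count filter, without the replicate block, and, for the dressings, with only the libraries of the 2 treatments compared. DESeq2 called 4 with s-GAG and 2 with Alg, and 0 in the other 4 comparisons. Those with s-GAG were LOC103692636 (adjusted p = 0.000118), LOC103691200 (0.000929), LOC120100692 (0.00418), and LOC102555697 (0.00468), and those with Alg were LOC103692636 (0.0103) and LOC103691200 (0.0153), all higher. Of the 4 with s-GAG, LOC120100692 is among the 200 only through s-GAG day 7. The s-GAG reads of all 4 helped to choose them, so their s-GAG calls are a description. When 1 library was left out at a time, the quasi-likelihood test called 0 to 1 with s-GAG and 0 in the other 5 comparisons, the 1 being LOC103692636 without d-SMG day 3 (adjusted p = 0.0338), when 0.41% of all genes were called. Without d-SMG day 3 and s-GAG day 14 together, a setting added after seeing the data, it called 4 with s-GAG, namely LOC103692636, LOC103691200, LOC120100692, and LOC120098829 (1.11% of all genes), and 0 elsewhere. The cause was not tested. At an unadjusted p under 0.05, leaving out 1 library gave 2 (without d-SMG day 14) to 20 (d-SMG day 3) of the 200 with d-SMG, 12 (control day 14) to 36 (s-GAG day 3) with s-GAG, and 6 (Alg day 3) to 12 (Alg day 14) with Alg. It gave 2 (control day 3) to 11 (Alg day 7) for day 7 against day 3, 4 (control day 7) to 21 (control day 14) for day 14 against day 7, and 5 (d-SMG day 14) to 21 (control day 14) for day 14 against day 3. The genes named for the smallest p of a comparison kept their direction in that comparison in every fit run. For H19 and the other named genes the direction was not followed gene by gene across the fits.

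On single days, with a 2-fold limit in place of 4-fold, 76, 41, and 71 of the 200 lay past it with d-SMG on day 3, 7, and 14, 77, 63, and 124 with s-GAG, and 63, 71, and 63 with Alg. Over all genes the shares were 22.6%, 11.8%, and 27.0%, 23.6%, 23.9%, and 56.2%, and 18.0%, 23.0%, and 19.7%. This is a limit that takes in more genes by construction. With FPKM the counts past 4-fold fell to 14 and 9 with d-SMG on day 3 and 7, and to 16 and 15 with Alg on day 3 and 14 (against 6.36%, 2.35%, 2.74%, and 4.92% of all genes), and with d-SMG on day 3 they split into 3 higher and 11 lower. Scaling by library size moved the median log2 ratio of all genes to -0.442, 0.307, and 0.169 with d-SMG on day 3, 7, and 14, to 0.133 with s-GAG on day 3 and -0.464 on day 14, and to 0.135 with Alg on day 3. Ranked by mean FPKM, 123 of the 200 would have been chosen and by mean CPM 198.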
